A study of Sus scrofa with 35 samples.

Results

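8 genes of cholesterol synthesis and its control were followed in the blood of pigs exposed to heat. They were HMGCS1, IDI1, FDPS, FDFT1, SQLE and LSS, which encode enzymes, and SREBF2 and INSIG1, which encode regulators. The members were found by name, as every probe of the array that was no control and whose gene name in the scanner files matched one of the symbols. This gave 18 probes of 60305 on the array (8 of 39174 gene names), and 14 of these, for 6 genes, were among the 39072 probes in the log2 table of the authors. Messenger RNA of whole blood was measured in 35 growing pigs, all castrated males, with 1 array for each pig. The pigs were Creole (CR), a local Caribbean breed, Large White (LW), a European breed, or F1 animals of the cross of these breeds. They were either thermoneutral (TN) at 24 °C or under heat stress (HS), labelled 30 °C in the sample records and 32 °C for 5 d in the protocol text. There were 6 pigs in each of the 6 groups of breed and climate, except CR TN with 5 pigs. Age was not given in the labels, and TN pigs had been slaughtered before the temperature was raised, so that climate and time of slaughter cannot be told apart.

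Cholesterol is built from acetyl units through mevalonate, isoprenoid pyrophosphates and squalene. Cells adjust this route through SREBP2, the transcription factor encoded by SREBF2. When sterol in the membrane of the endoplasmic reticulum is low, the escort protein SCAP carries SREBP2 to the Golgi apparatus, where proteases release its active part. This part turns on the genes of the pathway and of cholesterol uptake. When sterol is plentiful, INSIG1 retains SCAP in the endoplasmic reticulum. Mature red cells have no nucleus, so the mRNA of blood comes from white cells, platelets and young red cells. In such a mixture, fewer cells of a type and less RNA per cell cannot be told apart.

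The results turned on the 3 FDPS probes, which moved together, and on the probe pairs of SREBF2 and INSIG1, which did not. Their sequences, as deposited in the scanner files and written 5′ to 3′, show that they interrogate separate stretches. All were 60 bases long. The FDPS probes are given whole.
FDPS A_72_P212122: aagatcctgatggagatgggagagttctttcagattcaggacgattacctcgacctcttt
FDPS A_72_P565924: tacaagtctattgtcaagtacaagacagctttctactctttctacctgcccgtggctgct
FDPS A_72_P661524: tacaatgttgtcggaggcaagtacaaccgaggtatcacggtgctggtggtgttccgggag

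For the regulators, INSIG1 probe A_72_P186291 is given whole and 30 bases of each of the others. Capitals mark the hexamers AATAAA and ATTAAA, the letters of the common signals for adding a poly(A) tail. On the strand of the probe, 10.3% of all probes held AATAAA and 4.18% held ATTAAA, and on the opposite strand 4.32% and 2.93%. Such a match describes the letters and does not show that a signal was used.
SREBF2 O8965, bases 19 to 48: tgtgggttattcAATAAAcacagatcggta
SREBF2 A_72_P255532, bases 1 to 30: ttcctctgaacatcaaccctcccctccttc
INSIG1 A_72_P442208, bases 26 to 55: gtgtgtcactgcATTAAAcatcgggtgttt
INSIG1 A_72_P186291: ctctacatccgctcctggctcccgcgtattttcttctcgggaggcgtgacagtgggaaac

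The longest run of bases common to both SREBF2 probes was 4, and it was 5 for both INSIG1 probes. A further probe, A_72_P374888, which the files do not assign to SREBF2, shared 51 bases with O8965. Within SQLE, probes A_72_P088686 and A_72_P444903 shared 57 bases, so that they count as nearly the same measurement. The FDPS probes shared at most 9 bases with each other. No transcript sequence was used here, and the fit of a probe to the pig mRNA was not checked.

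Some features of the arrays touch all values below. The 75th percentile of the processed intensity averaged 149.9 ± 28.3 (SD, n = 6) in F1 TN pigs and between 202 and 238 in the other groups. The mean of the erythroid list (14 of 24 marker genes of red cell precursors measured) was also highest in F1 TN pigs, at a log2 intensity of 10.17 ± 0.49 (SD, n = 6), and lowest in F1 HS pigs, at 9.35 ± 0.48 (n = 6). Single pigs ranged from 9.05 to 11.02 in TN and from 8.58 to 10.26 in HS. Of the 14 erythroid genes, 5 were lower in HS by limma and 0 were higher. Of the other marker lists, 3 of 11 T cell genes, 3 of 7 B cell genes and 2 of 7 monocyte genes were higher in HS, and 1 of 8 cytotoxic genes was lower. For neutrophils and platelets, 0 of 6 genes each passed by limma, with median log2 differences of -0.39 and 0.36. Over all genes, 19.7% were higher and 15.5% lower in HS. The arrays lay on 5 slides, each with HS and TN pigs. Before HS and TN were compared within a slide, the midpoint of each breed's HS and TN means over all slides was removed. On the slide with 4 arrays no breed had pigs of both climates, so that its difference compares pigs of different breeds.

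In HS pigs, FDPS and probes of SQLE and FDFT1 were higher than in TN pigs, whereas SREBF2 gave opposite answers with its 2 probes. With breed and climate fitted as additive terms in limma, 8 of the 14 member probes passed the threshold of 0.05 on the adjusted p-value (7 higher and 1 lower in HS). This was 57.1% of the member probes, against 34.8% of all 39072 probes, of which 20.1% were higher and 14.7% lower. The median log2 difference of the members was 0.27, beside 0.06 for all probes. The probes are not independent, as several share a gene or a sequence. Averaged per gene, FDPS, SQLE and FDFT1 passed and LSS, SREBF2 and INSIG1 did not, against a background of 35.2% of 25581 gene names. These p-values measure the spread between pigs and treat the pigs as independent, as pen, litter and slaughter day were not in the labels. By the study's own account, pigs shared pens, litters and slaughter days. They were thus not fully independent, and the p-values of members and background alike may be too low. The study fitted pen, slaughter day, father and mother as random effects. It reported far fewer differing probes in blood than the 34.8% found here.

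FDPS, farnesyl pyrophosphate synthase, joins isoprenoid units into the last precursor that sterols share with prenylated proteins. Its level rose with all 3 probes in the table. For probe A_72_P661524, the log2 intensities of the CR TN pigs were 8.04, 7.52, 8.11, 7.68 and 7.67, and CR HS pigs ranged from 7.72 to 8.83 with a median of 8.24. F1 TN pigs ranged from 6.71 to 8.25 (median 7.28) and F1 HS pigs from 8.21 to 8.78 (median 8.32). LW TN pigs ranged from 7.28 to 8.12 (median 7.77) and LW HS pigs from 7.64 to 8.47 (median 8.12). The groups overlapped in all 3 breeds, though in F1 pigs through 1 TN pig that lay above 3 HS pigs. Of the 18 HS pigs, 16 lay above the TN mean of their breed. The difference between HS and TN was 0.60 ± 0.12 (SE) on the log2 scale (limma, adjusted p = 0.00159), a 1.52-fold change, and it was positive within each of the 5 slides, from 0.39 to 0.74.

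The other FDPS probes gave 0.42 ± 0.09 for A_72_P212122 (limma, adjusted p = 0.00211) and 0.39 ± 0.08 for A_72_P565924 (adjusted p = 0.00159). For A_72_P212122, F1 TN pigs ranged from 8.75 to 9.72 (median 9.33) and F1 HS pigs from 9.79 to 10.08 (median 9.90), with no overlap. In F1 pigs, 11.7% of all probes had HS and TN values that did not overlap. The mean of the 3 probes was 1.39-fold higher in HS (log2 difference 0.47 ± 0.09, limma, adjusted p = 0.00167). A further FDPS probe, O8700, lay outside the table of the authors and near the background.

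FDFT1 and SQLE encode the enzymes that follow FDPS. FDFT1, squalene synthase, is the first enzyme committed to sterols, and SQLE, squalene epoxidase, adds the oxygen from which the ring is later closed. Of the 4 SQLE probes, A_72_P705210 (0.40 ± 0.12 on the log2 scale, adjusted p = 0.00884) and O12690 (0.36 ± 0.10, adjusted p = 0.00546) rose in HS by limma. The pair that shares 57 bases did not pass, with 0.18 ± 0.14 for A_72_P088686 (adjusted p = 0.315) and 0.25 ± 0.14 for A_72_P444903 (adjusted p = 0.15, both limma). With scaling on the 75th percentile in place of quantile normalization, the called probes gave larger values, 0.75 for A_72_P705210 and 0.64 for O12690.

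For SQLE O12690, the CR TN pigs had log2 intensities of 6.33, 5.82, 6.28, 5.75 and 5.48, against 5.60 to 6.69 (median 6.10) in CR HS pigs. F1 TN pigs ranged from 5.31 to 6.18 (median 5.49) and F1 HS pigs from 5.88 to 6.52 (median 6.17). LW TN pigs ranged from 5.66 to 6.16 (median 5.71) and LW HS pigs from 5.90 to 6.17 (median 6.03). HS and TN overlapped in all breeds, and 16 of 18 HS pigs lay above the TN mean of their breed. In both F1 and LW pigs, a single TN pig reached into the range of the HS pigs.

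For FDFT1, probe O10068 rose by 0.29 ± 0.11 on the log2 scale (limma, adjusted p = 0.032), whereas A_72_P098361 gave 0.25 ± 0.11 and did not pass (limma, adjusted p = 0.0832). The O10068 values were 10.68, 10.28, 10.36, 10.12 and 9.82 in CR TN pigs and 9.86 to 10.73 (median 10.41) in CR HS pigs. They were 9.56 to 10.35 (median 9.81) in F1 TN, 9.85 to 10.98 (median 10.43) in F1 HS, 9.60 to 10.08 (median 9.94) in LW TN and 9.71 to 10.48 (median 10.03) in LW HS pigs. HS and TN overlapped in every breed. The call was a narrow one, as it was lost in 8 of the 35 fits that left out a pig, with adjusted p-values up to 0.059.

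**Figure D1:**
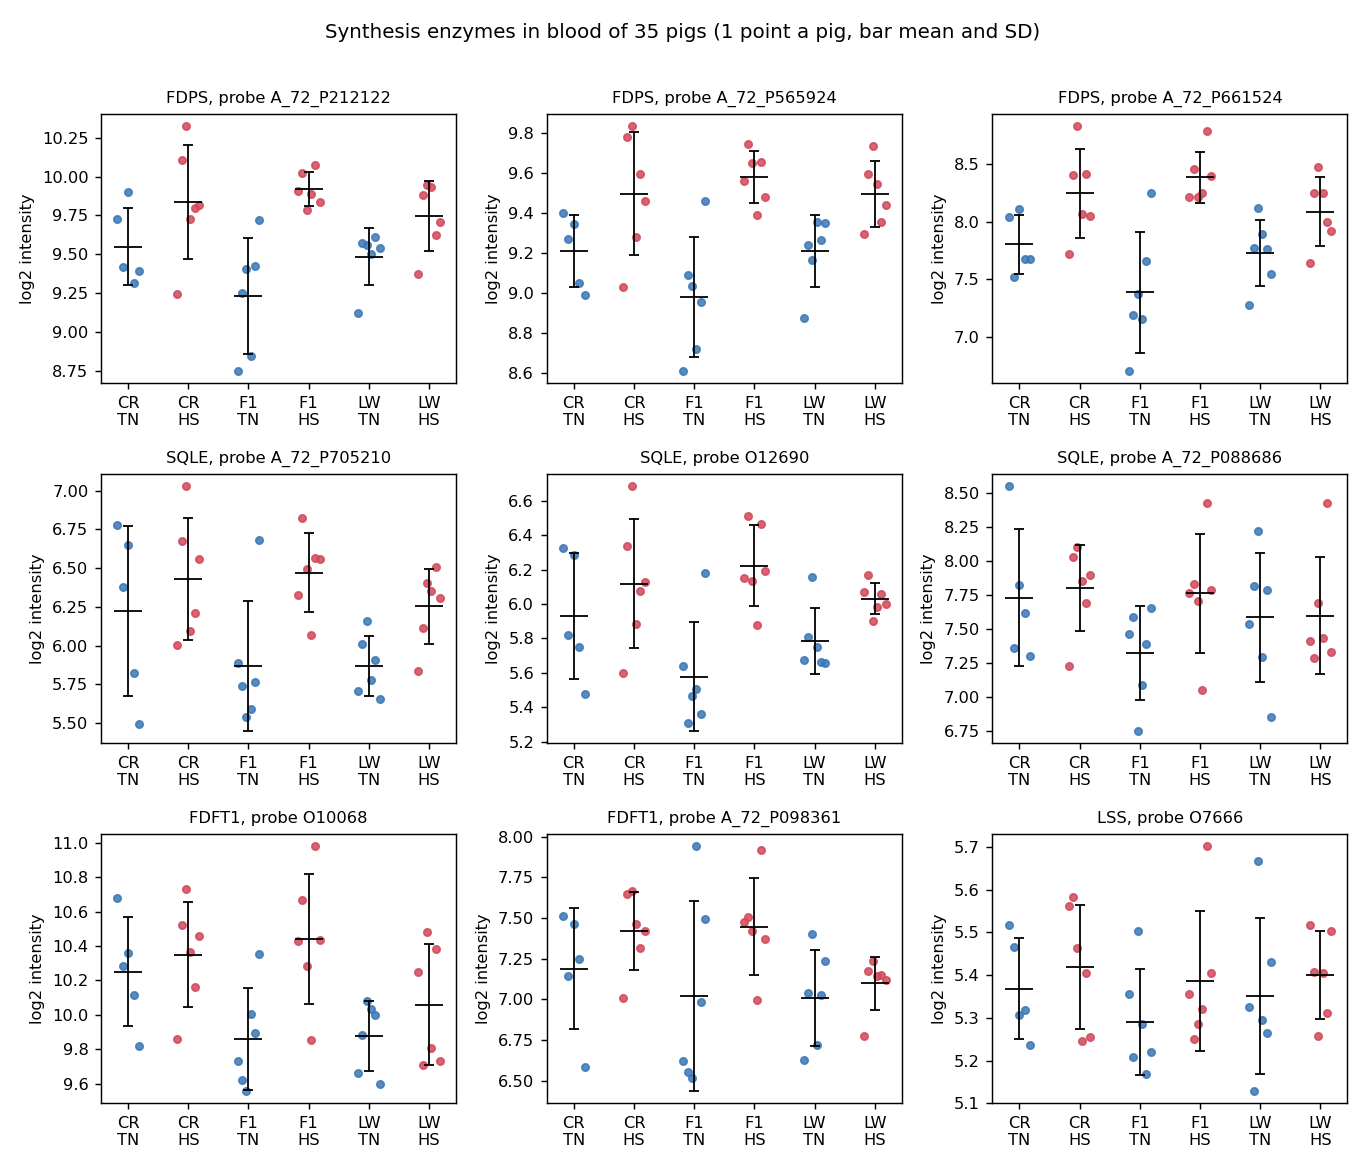
Log2 intensity (y axis) of 9 probes for FDPS, SQLE, FDFT1 and LSS (SQLE A_72_P444903, which shares 57 bases with A_72_P088686, is left out) in the 6 groups of breed and climate (x axis), with 1 point for each of 35 pigs (blue TN, red HS), a horizontal mark for the mean and bars for the SD. The means of the 3 FDPS probes were higher in HS in all breeds, with the widest gap in F1 pigs, and LSS varied between 5.13 and 5.70 with no separation.

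LSS, lanosterol synthase, closes the sterol ring. Its only probe, O7666, was dim and well above background on 17 of 35 arrays (11 of 18 HS and 6 of 17 TN). All pigs had log2 intensities between 5.13 and 5.70, and group means lay between 5.29 and 5.42. The difference of 0.07 ± 0.05 did not pass (limma, adjusted p = 0.334). HMGCS1, which makes the precursor of mevalonate, and IDI1, which interconverts the isoprenoid building blocks, had no probe in the table of the authors. Their values were recomputed from the scanner intensities and no test was made. HMGCS1 probes A_72_P278614 and O9276 were well above background on 2 and 0 of the 35 arrays, and IDI1 probe O10086 on 1. Apart from 1 LW TN pig at 8.17, all IDI1 values were at or below 5.29. For both genes the probes were thus not well above background on nearly all arrays. Whether these probes match the mRNA strand was not checked, so that a low value here does not show that the mRNA was low.

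For SREBF2, the 2 probes moved in opposite directions. Probe A_72_P255532 fell by 0.69 on the log2 scale in HS (SE 0.15, limma, adjusted p = 0.00171), while probe O8965 rose by 0.41 ± 0.10 (limma, adjusted p = 0.00357). Both were well above background on all 35 arrays. That both belong to SREBF2 is the naming of the files and was not checked against transcripts. With the breed midpoints removed, the signs held on every slide. A_72_P255532 was lower in HS on 5 of 5 slides (-0.91 to -0.29) and O8965 higher on 5 of 5 (0.27 to 0.60).

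For A_72_P255532, the CR TN pigs had log2 intensities of 11.68, 12.73, 11.996, 12.44 and 12.03, and CR HS pigs ranged from 10.997 to 12.46 (median 11.64). F1 TN pigs ranged from 12.17 to 13.07 (median 12.70) and F1 HS pigs from 10.88 to 12.04 (median 11.48). LW TN pigs ranged from 11.71 to 12.44 (median 12.27) and LW HS pigs from 11.59 to 12.35 (median 11.79). The F1 groups did not overlap (background in F1 pigs 11.7% of all probes), and in all breeds together 3 of 18 HS pigs lay above the TN mean of their breed. The change in F1 pigs was to 0.433-fold of the TN level (log2 difference -1.21 ± 0.23, limma, adjusted p = 0.000371).

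For O8965, the CR TN pigs had 12.43, 11.99, 12.11, 11.73 and 12.04, and CR HS pigs ranged from 11.65 to 12.46 (median 12.28). F1 TN pigs ranged from 11.04 to 12.34 (median 11.76) and F1 HS pigs from 12.11 to 12.94 (median 12.34). LW TN pigs ranged from 11.92 to 12.23 (median 11.99) and LW HS pigs from 12.28 to 12.65 (median 12.32). Here the LW groups did not overlap (background in LW pigs 0.781% of all probes), and 16 of 18 HS pigs lay above the TN mean. The probe A_72_P374888, which shares 51 bases with O8965, gave 0.40 ± 0.11 (limma, adjusted p = 0.00563). The residuals of both, after the group means were removed, had a Pearson correlation of 0.97 over 35 pigs (Spearman 0.94, both permutation p = 1e-05, the smallest the permutations can give).

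Taken in each pig, the difference of O8965 minus A_72_P255532 was on average 1.09 higher in HS than in TN on the log2 scale, which restates the opposite changes of the probes. It was above 0 in 15 of 18 HS pigs and in 5 of 17 TN pigs. The gene mean, which averages these opposed probes, gave -0.14 ± 0.07 and did not pass (limma, adjusted p = 0.0995).

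INSIG1 also gave opposite signs, with smaller values that did not pass. Probe A_72_P442208 gave 0.17 ± 0.09 (limma, adjusted p = 0.114) and A_72_P186291 gave -0.15 ± 0.08 (limma, adjusted p = 0.136), and their mean was 0.01 ± 0.06. A_72_P442208 values were 7.30, 6.92, 6.48, 6.32 and 6.35 in CR TN pigs and spanned 6.15 to 7.26 over all other pigs. A_72_P186291 values were 8.41, 9.21, 9.13, 8.83 and 8.61 in CR TN pigs and spanned 8.43 to 9.40 over the other pigs. HS and TN overlapped for both probes in every breed (in CR pigs, 0.461% of all probes did not overlap). The difference of the pair (A_72_P442208 minus A_72_P186291) was on average 0.32 higher in HS.

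**Figure D2:**
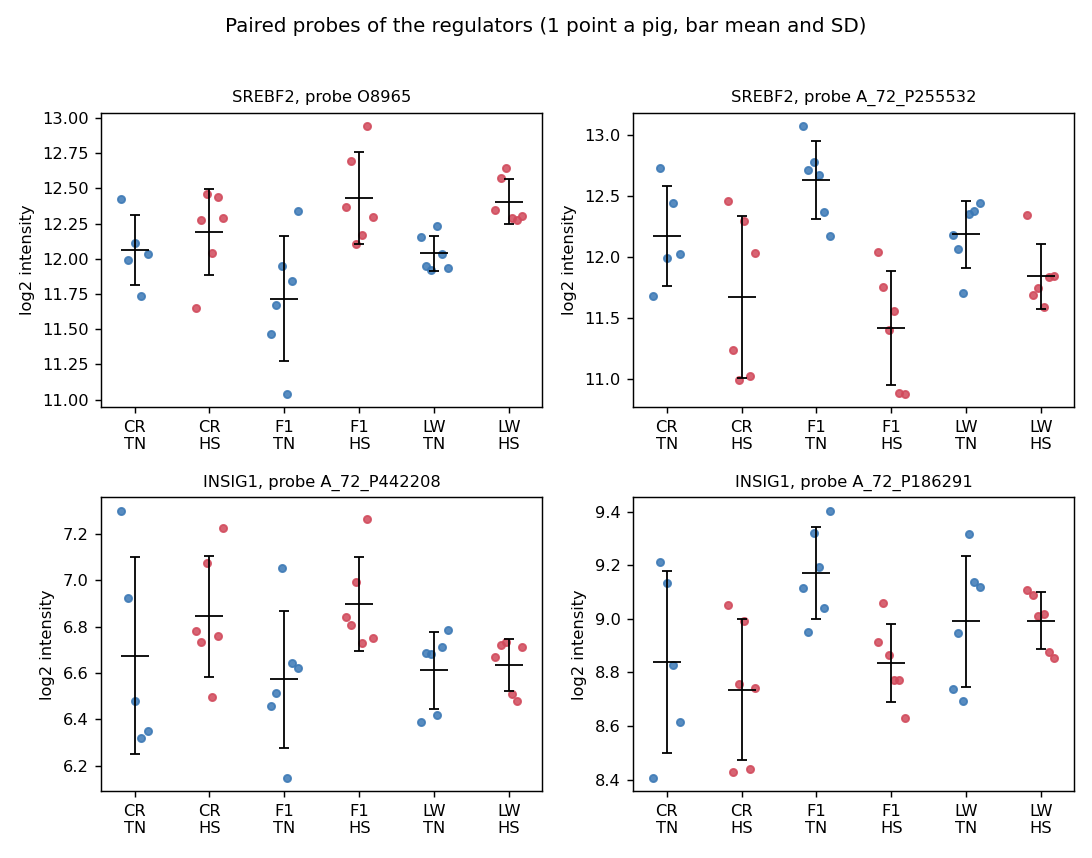
Log2 intensity (y axis) of both SREBF2 probes (top) and both INSIG1 probes (bottom) in the 6 groups (x axis), with 1 point a pig (blue TN, red HS), a mark for the mean and bars for the SD. SREBF2 O8965 was higher and A_72_P255532 lower in HS, and in F1 pigs A_72_P255532 lay between 12.17 and 13.07 in TN and between 10.88 and 12.04 in HS, with no overlap. The same lack of overlap was found for 11.7% of all probes in F1 pigs.

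Within breeds, members passed the threshold in F1 pigs. There, 9 of 14 member probes passed by limma (64.3%, 7 higher and 2 lower), against 38.7% of all probes (20.8% higher and 17.9% lower). These were the 8 of the additive model and INSIG1 A_72_P186291 (-0.34 ± 0.13, limma, adjusted p = 0.0404). This INSIG1 call was lost in 5 of 10 alternative settings, such as scaling on the 75th percentile (adjusted p = 0.109), and in 8 of the 35 fits that left out a pig (limma, adjusted p up to 0.0967). In CR and LW pigs, 0 member probes passed by limma and 2 in each breed had an unadjusted p under 0.05, and the background was 0 of 39072 probes in both breeds. The signs were nonetheless alike, as 12 of 14 member probes in CR, 12 in F1 and 13 in LW pigs had positive differences, beside 56.1%, 62.9% and 52.7% of all probes. FDPS A_72_P661524 gave 0.44 ± 0.20 in CR, 0.99 ± 0.19 in F1 and 0.36 ± 0.19 in LW pigs. SREBF2 A_72_P255532 gave -0.50 ± 0.25, -1.21 ± 0.23 and -0.35 ± 0.23 in the same order.

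The larger values in F1 pigs were not shown to be particular to them. In the limma F test of the interaction of breed and climate, 0 of 14 member probes passed (lowest adjusted p = 0.3, and 1 with an unadjusted p under 0.05), as did 0 of all 39072 probes. In the direct comparison of HS effects between F1 and LW pigs, the lowest adjusted p of a member was 0.139 (SREBF2 A_72_P255532, -0.86 ± 0.33, limma). Without the F1 pigs, 0 of 14 member probes and 0 of all probes passed in the additive model by limma (6845 probes with an unadjusted p under 0.05), and the FDPS probes gave 0.27 to 0.40. With the 75th percentile of each array as a covariate, 0 of 14 member probes and 0 of all probes passed in F1 pigs, where this percentile differed between HS and TN.

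**Figure D3:**
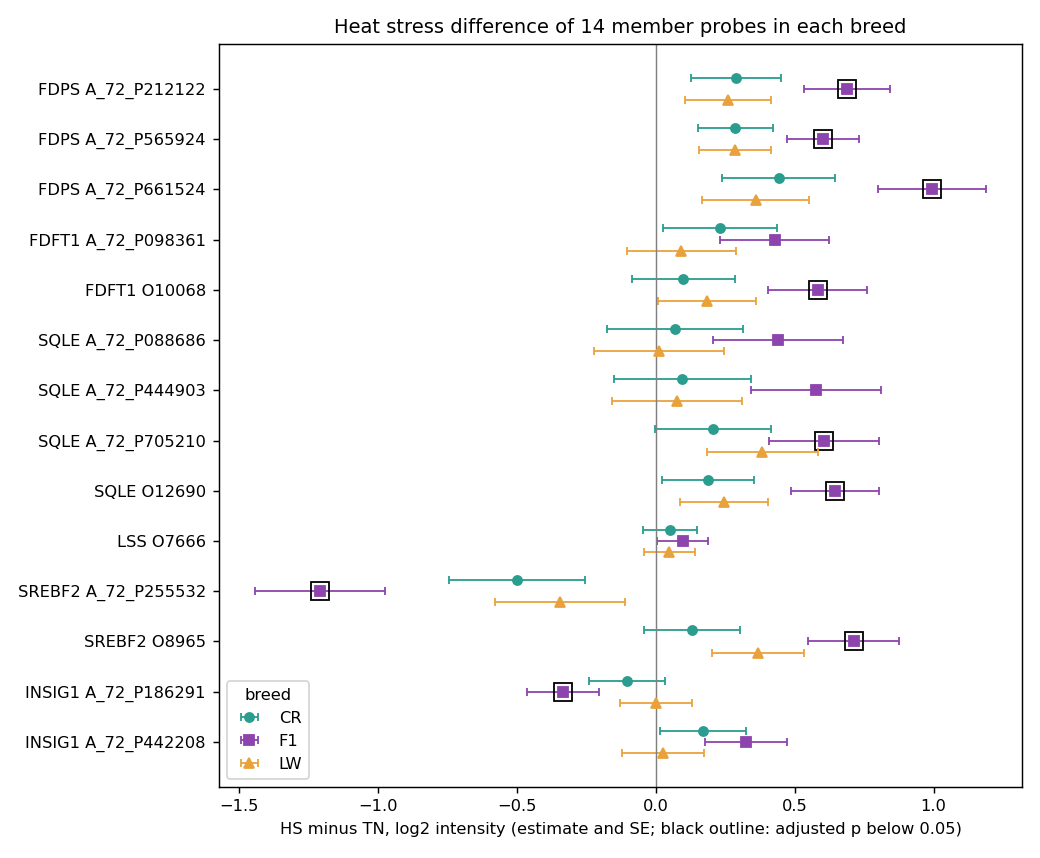
Difference between HS and TN in log2 intensity (x axis, estimate and SE) of the 14 member probes (y axis) in CR (circles), F1 (squares) and LW pigs (triangles), with a black outline where the limma adjusted p was below 0.05. All 9 outlined values belong to F1 pigs, and the FDPS estimates were positive in the 3 breeds.

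No member was shown to differ between breeds. In the contrasts CR minus LW, F1 minus CR, F1 minus LW and F1 minus the mid-parent value, 0 of 14 member probes passed by limma. The background was 1.08%, 0.184%, 0.0256% and 0.0717% of all probes. At an unadjusted p under 0.05 there were 2 member probes in CR minus LW and 1 in F1 minus CR. The former were FDFT1 O10068 (0.32 ± 0.13, adjusted p = 0.336) and INSIG1 A_72_P186291 (-0.20 ± 0.10, adjusted p = 0.466), which are given here after their values were seen.

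The members were then set against the erythroid mean, which differed between HS and TN most in F1 pigs. Over 35 pigs and after removal of the group means, FDPS was lower in pigs with a higher erythroid mean (Pearson r = -0.53, permutation p = 0.00515, adjusted p = 0.0309 over 6 genes; Spearman rho = -0.49, permutation p = 0.00726). Without the 2 pigs farthest from the median of the erythroid mean, r was -0.48, and within the 4 slides with 7 or 8 arrays it ranged from -0.89 to 0.20, so that the sign did not hold on 1 slide. The other 5 genes did not pass, and the share of all genes with such a relation was not computed.

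Read probe by probe, a choice made after the values were seen, the SREBF2 probes related to the erythroid mean with opposite signs over all pigs, though on 1 of 4 slides both were negative. SREBF2 O8965 had r = -0.71 (permutation p = 9e-05, adjusted p = 0.000315 over 7 relations; rho = -0.67, permutation p = 0.00029), with -0.67 without the 2 farthest pigs and -0.86 to -0.25 within slides. SREBF2 A_72_P255532 had r = 0.50 (permutation p = 0.012, adjusted p = 0.0167; rho = 0.42, permutation p = 0.0328), with 0.48 without these pigs and -0.54 to 0.90 within slides. INSIG1 A_72_P442208 had r = -0.54 (permutation p = 0.00547, adjusted p = 0.0115; rho = -0.42, permutation p = 0.0253), with -0.41 and -0.69 to -0.18, and A_72_P186291 had r = 0.14 (permutation p = 0.492; rho = 0.06, permutation p = 0.771). The SREBF2 probes opposed each other also between pigs of the same group (r = -0.50, permutation p = 0.00659, adjusted p = 0.0115; rho = -0.43, permutation p = 0.0249), on each of the 4 slides (-0.79 to -0.39).

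With the erythroid mean as a covariate in limma, 0 of 14 member probes passed for HS against TN, as did 29 of all 39072 probes (0.0742%). All 14 differences kept their sign. FDPS A_72_P661524 then gave 0.39 ± 0.11 (adjusted p = 0.0633) and SREBF2 A_72_P255532 gave -0.44 ± 0.14 (adjusted p = 0.0728), while O8965 dropped to 0.20 ± 0.08 (adjusted p = 0.147). In F1 pigs, 2 member probes passed with this covariate, FDPS A_72_P661524 (0.65 ± 0.20, adjusted p = 0.0463) and SREBF2 A_72_P255532 (-0.80 ± 0.24, adjusted p = 0.0436). The background in F1 pigs was then 2501 of all 39072 probes (6.4%).

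**Figure D4:**
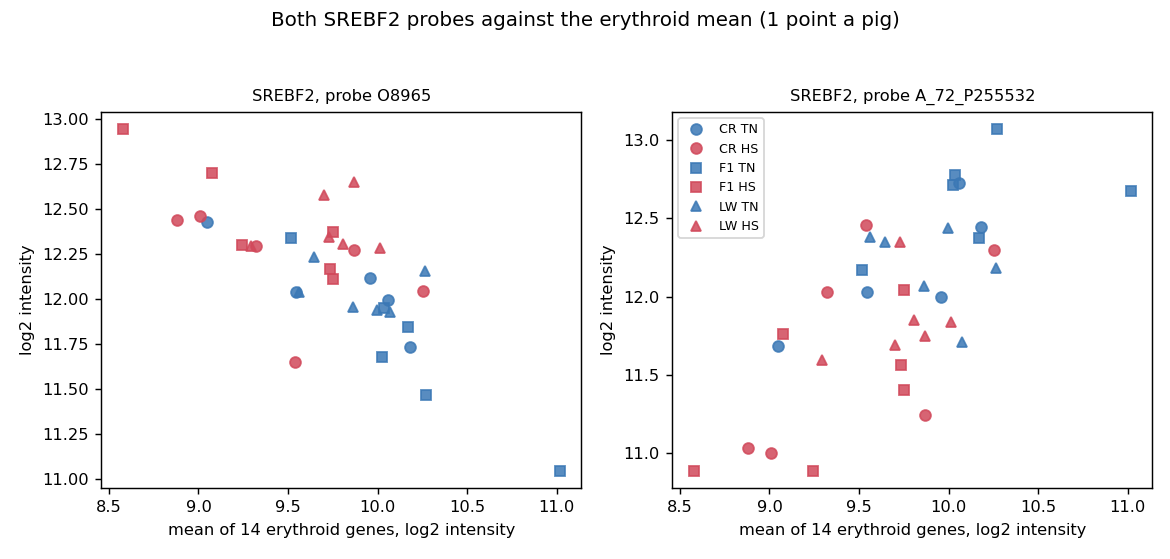
Log2 intensity of SREBF2 probes O8965 (left) and A_72_P255532 (right) on the y axis against the mean log2 intensity of 14 erythroid genes on the x axis, with 1 point a pig (blue TN, red HS; circles CR, squares F1, triangles LW). O8965 was lower and A_72_P255532 higher in pigs with a high erythroid mean, with residual correlations of -0.71 and 0.50.

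Between pigs of the same group, FDPS, FDFT1 and SQLE varied together. Of 15 pairs of gene means, 4 passed the threshold after adjustment. How many pairs over all genes would pass the same test was not computed. SQLE and FDFT1 had r = 0.75 over 35 pigs (permutation p = 3e-05, adjusted p = 0.00045; rho = 0.70, adjusted p = 6e-04), SQLE and FDPS r = 0.56 (permutation p = 0.00105, adjusted p = 0.00685; rho = 0.59, adjusted p = 0.00577), and FDFT1 and FDPS r = 0.56 (permutation p = 0.00191, adjusted p = 0.00716; rho = 0.57, adjusted p = 0.00825). Without the 2 pigs farthest from the median of the first gene, these were 0.70, 0.48 and 0.68. Within slides they were positive on all 4 slides with 7 or 8 arrays, from 0.66 to 0.96, from 0.48 to 0.86 and from 0.06 to 0.95. With the erythroid mean also removed, r was 0.76, 0.47 and 0.58 in the same order. SQLE and FDPS then passed by Pearson (permutation, adjusted p = 0.0375) but not by Spearman (rho = 0.41, permutation, adjusted p = 0.101).

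The fourth pair was SREBF2 and INSIG1 (r = 0.55, permutation p = 0.00137, adjusted p = 0.00685; rho = 0.54, adjusted p = 0.0112; 0.53 without the 2 farthest pigs and 0.28 to 0.58 within slides), both means of opposed probes. The SREBF2 mean did not pass with the enzymes whose genes its protein controls (r = -0.21 with SQLE, -0.20 with FDFT1 and -0.19 with FDPS, the lowest adjusted p of these being 0.525 by permutation). Without removal of the group means, the same pairs had r = -0.39, -0.41 and -0.42 (permutation, adjusted p = 0.0474, 0.0369 and 0.0369) and rho = -0.35, -0.33 and -0.39 (permutation, adjusted p = 0.0986, 0.11 and 0.0631). Here the pigs were shuffled over all groups, so that differences between the groups enter these values. LSS passed with no other member, with r between -0.16 and 0.20.

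The wider pathway was read from a list of 43 other genes in 6 roles, of which 32 were measured. In HS, 14 of these rose and 0 fell by limma on gene means, while 18 did not pass. The background was 19.7% of all genes higher and 15.5% lower. Within F1 pigs, 15 of the 32 genes passed by limma, 13 higher and 2 lower, against 39.4% of all genes (20.6% higher and 18.8% lower). The median log2 difference over the 32 genes was 0.18, beside 0.05 over all genes. As for the members, these calls rested on the whole set of pigs, and 0 of all 25581 genes passed without F1 pigs (4373 with an unadjusted p under 0.05, limma). With the erythroid mean as a covariate, 13 of all 25581 genes passed for HS against TN by limma. How many of the 32 genes were among them was not counted. With the 75th percentile as a covariate, 0 of all genes passed in F1 pigs.

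In the steps to mevalonate and isoprenoids, both measured genes rose. MVK, mevalonate kinase, had the largest value of the list (0.57 ± 0.12, limma, adjusted p = 0.00167). Its log2 levels ranged from 7.45 to 8.38 in F1 TN and from 8.30 to 9.08 in F1 HS pigs, overlapping slightly. After squalene, 2 of 6 genes rose, among them NSDHL, which takes part in removing methyl groups (0.31 ± 0.06, limma, adjusted p = 0.00167).

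In sterol sensing and SREBP processing, 3 of 5 genes rose. SCAP, the escort of SREBP2, gave 0.28 ± 0.08 (limma, adjusted p = 0.011). SREBF1, which encodes the factor for fatty acid genes, gave -0.23 ± 0.10 and did not pass (limma, adjusted p = 0.0682), but was lower in HS within F1 pigs (-0.44, limma, adjusted p = 0.0343). Its 3 probes also disagreed, with 1 higher and 1 lower in HS.

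In uptake and transport, 1 of 7 genes rose, no larger a share than over all genes. All 7 had positive values over the 3 breeds, and 4 of 7 in LW pigs. The gene that rose was LIPA, the lysosomal lipase that frees cholesterol from its esters (0.36 ± 0.07, limma, adjusted p = 0.00167). It was also higher in CR than in LW pigs (0.32, limma, adjusted p = 0.0391), the only gene of the list past the threshold in that contrast (background 1.24% of all genes).

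Some genes of efflux and fatty acid synthesis rose as well. ABCA1, the exporter of cholesterol, gave 0.51 ± 0.14 (limma, adjusted p = 0.00549), and NR1H3, a receptor for oxysterols, 0.36 ± 0.06 (adjusted p = 0.00164), as 2 of 5 genes of that role. Of 7 fatty acid genes, 4 rose, including FASN (0.39 ± 0.10, adjusted p = 0.00461), ACACA (0.34 ± 0.08, adjusted p = 0.00224) and SCD (0.32 ± 0.09, adjusted p = 0.00854). In the interaction of breed and climate, 0 of the 32 genes passed by limma (lowest adjusted p = 0.274).

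**Figure D5:**
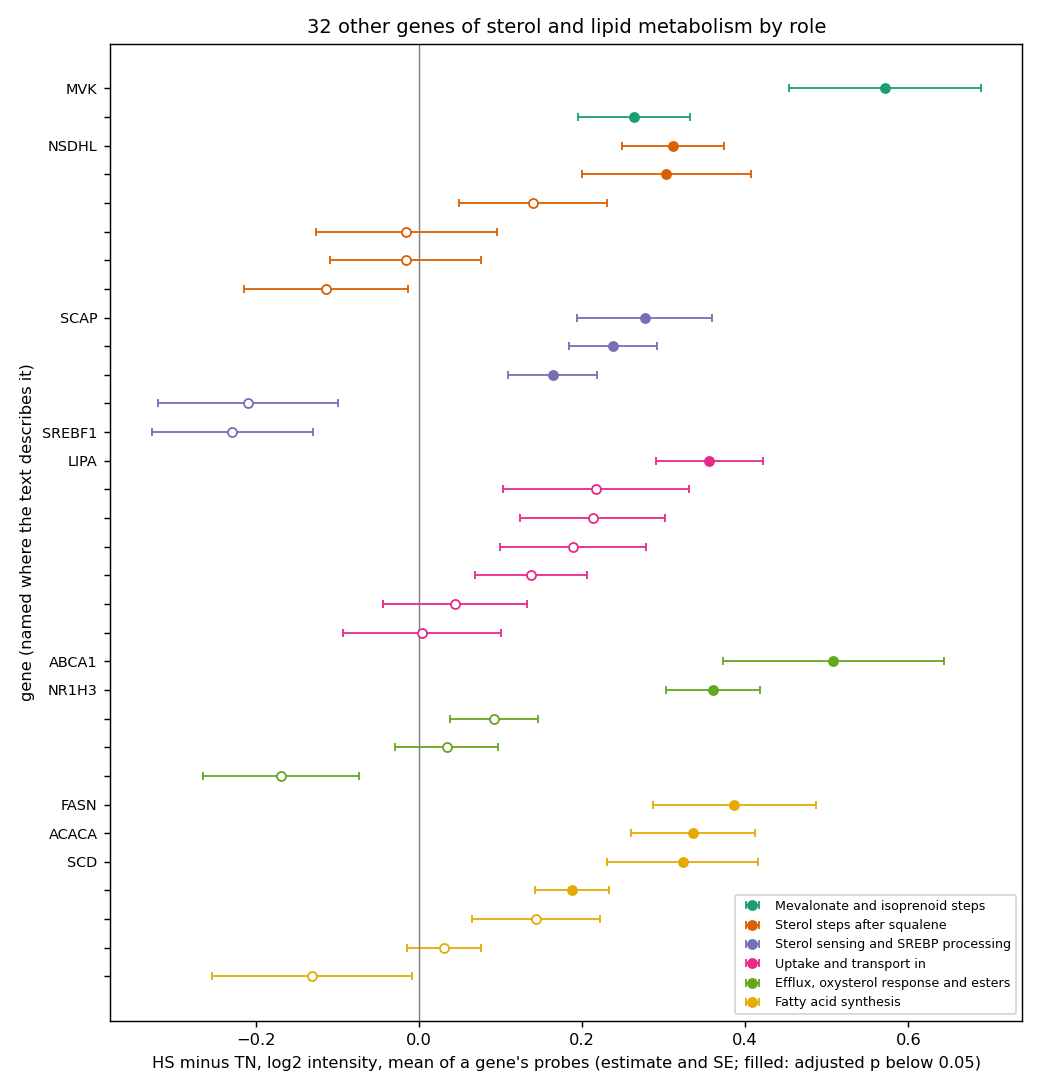
Difference between HS and TN in log2 intensity (x axis, estimate and SE, mean of the probes of a gene) of 32 other genes of sterol and lipid metabolism (y axis, with the names of the genes described in the text), coloured by role and filled where the limma adjusted p was below 0.05. The 14 filled genes all lie above 0, led by MVK at 0.57 and ABCA1 at 0.51.

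A search for genes that varied between pigs like the members gave mostly unnamed sequences. The mean of the standardized residuals of the 6 measured members was compared with 25575 other gene names over 35 pigs. The 5 most similar were TC549909, TC573211, DY426778, TC594325 and TC554392, with Pearson r between 0.70 and 0.74, and all 5 names are identifiers of sequence clusters or tags. The median r over all names was 0.03, and the same mean had r = -0.45 with the erythroid mean.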

How the data were processed

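Groups were taken from the labels of 35 pigs, and 1 array was run for each. The authors deposited the scanner intensity of every spot together with log2 values of the probes they kept as expressed, after quantile normalization of median intensities. Agilent Feature Extraction 10.10.1.1 and limma are named in the submitters' processing notes. The log2 table was used as deposited, and probes outside it were recomputed with quantile normalization from the median intensity (Pearson r with the deposited log2 values over shared probes 0.99997). Values were fitted with limma 3.58.1 in R 4.3.3 (lmFit, eBayes, two-sided), with breed and climate or 6 group means. P-values were adjusted by Benjamini-Hochberg over all 39072 probes or all 25581 gene names, with a threshold of 0.05, and gene values are means of probes. Permutation tests used 100000 draws and were two-sided. Residuals from group means were shuffled within groups, and values that kept the group means were shuffled over all 35 pigs. The code was tested on simulated data. For arrays, their number limits the precision.

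The members and the gene lists were chosen with earlier results of these data known. Of the wider pathway, SREBF1 and SCAP were always named, with the 8 genes of the list that had the largest changes past the threshold. Some further genes of the pathway are not reported here and are in none of its counts. Alternatives were the recomputed values, other scalings and filters, normexp correction (offset 50), slide as a block, array weights, covariates, and each pig left out. Pen, litter and slaughter day were not in the labels and were not fitted. No coordinates are given, as the files name no genome build.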

Additional observations from a re-analysis of the deposited data

Results flagged for a closer look

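The values of each probe were examined for a pig that stood apart from its group. Of 108 combinations of probe and group, 9 had such a pig (8 different pigs), where chance gives about 1 in 20. The LW TN pig number 4 stood at 8.17 for IDI1 O10086, against 4.90 to 5.24 in the other LW TN pigs, and this was the only array on which that probe was well above background. For SQLE, the F1 TN pig number 6 had 6.68 with A_72_P705210 (others 5.54 to 5.89), the LW TN pig number 3 had 6.16 with O12690 (others 5.66 to 5.81) and the LW HS pig number 5 had 8.43 with A_72_P088686 (others 7.29 to 7.69). The LW HS pig number 1 was low for FDFT1 A_72_P098361 at 6.78 (others 7.12 to 7.23) and high for SREBF2 A_72_P255532 at 12.35 (others 11.59 to 11.85). FDPS A_72_P212122 was 9.12 in the LW TN pig number 1 (others 9.50 to 9.61). The others were at dim probes, HMGCS1 A_72_P278614 at 5.28 in the CR TN pig number 2 (others 5.03 to 5.09) and LSS O7666 at 5.70 in the F1 HS pig number 5 (others 5.25 to 5.40).

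FDPS probe O8700, which is outside the table of the authors, was well above background in 5 of 18 HS pigs and in 0 of 17 TN pigs. The share of all probes with such a gap was not computed, and no test was made. Its recomputed log2 values lay between 4.86 and 5.45.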

How the results depend on the processing

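For HS against TN, the 8 called member probes kept their sign under every alternative run. The count of called member probes was 0 with the erythroid mean as a covariate and 0 without F1 pigs, and stayed within 1.5 times of 8 otherwise (7 to 9 when a pig was left out). Of 6 genes, 3 passed in the main setting, 0 with the erythroid covariate, 1 (FDPS) with the log2 75th percentile as a covariate, 0 without F1 pigs, and 1 to 4 when a pig was left out. Over all genes, the shares were 35.2%, 0.0508%, 16.8% and 0% in the same order, and 29.7% to 42.6% when a pig was left out. The count of member genes was 1, FDPS, without F1 HS pig 2 or 5, F1 TN pig 3, CR HS pig 3 or CR TN pig 5. In F1 pigs, 9 member probes became 2 with the erythroid covariate (6.4% of all probes). They became 0 with the 75th percentile as a covariate (0 of all 39072 probes, 5805 with an unadjusted p under 0.05). When a pig was left out, the count was 8 to 11, against 29.4% to 42.2% of all probes. In CR and LW pigs, the interaction and the breed contrasts, leaving out a pig gave 0 throughout. With array weights, 1 member probe passed in CR minus LW, INSIG1 A_72_P186291 (-0.30, limma, adjusted p = 0.0275). The share of all probes that passed in this contrast with array weights was not computed. Raw log2 values, shuffled over all pigs, gave 7 of 15 correlated pairs in place of 4, the added ones being SREBF2 with SQLE, FDFT1 and FDPS.

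The sign turned for values near 0 or from opposed probes. The INSIG1 gene mean was -0.000643 with normexp, -0.0315 with the erythroid covariate, -0.15 with its brightest probe, and -0.00707 to 0.0347 when a pig was left out. The SREBF2 gene mean was 0.41 with its brightest probe, O8965 (limma, adjusted p = 0.00351). In F1 pigs, SQLE A_72_P088686 was -0.0679 with the 75th percentile as a covariate. With slide as a fixed block, the 8 probes called in the main setting were called again. The SQLE gene mean was not called under the stricter filter, which left out its 2 called probes. The cause of these changes was not tested. No paired analysis was possible because the labels give no replicate numbers shared between groups.

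Precision is limited by 5 or 6 pigs a group and, for LSS, HMGCS1 and IDI1, by signals near background.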
